A study of Homo sapiens with 12 samples.

Results

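The peptide-loading side of the MHC class I pathway was followed through 10 genes in AC16 cells given interferon alpha-2a: TAP1, TAP2, TAPBP, TAPBPL, ERAP1, ERAP2, NLRC5, CALR, CANX and PDIA3. They were chosen by symbol, for their place in the pathway, with earlier results of these data known. All 10 were found among the 60649 gene identifiers of the count table, and all 10 were among the 18119 genes that passed the filter on low counts. AC16 is a human line made from ventricular cardiac tissue, and 3 libraries were sequenced in each of 4 groups. Acute cells received recombinant interferon alpha-2a at 1000 U/mL for 24 h. Recovery cells were pulsed alike for 24 h and then held for 5 days without interferon, with harvest labelled day 6. Repeat cells received a 24 h pulse, a hold of 4 days and another 24 h pulse, with harvest labelled day 7 although these times add to fewer days. Vehicle cells were given phosphate-buffered saline and are labelled 24 h, although the design text speaks of vehicle for equivalent intervals. By the 24 h label, recovery or repeat against vehicle is also a comparison of time in culture, and so is either against acute cells. The labels name different culture media in different fields. The design text calls the libraries independent biological replicates of this 1 line, and the p-values measure the spread among these libraries.

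MHC class I molecules show peptides from inside the cell to CD8 T cells. TAP1 and TAP2 form the transporter that carries peptides from the cytosol into the endoplasmic reticulum, where the aminopeptidases ERAP1 and ERAP2 trim them to a length that class I can bind. Tapasin, the product of TAPBP, holds empty class I molecules beside the transporter, and TAPBPR, the product of TAPBPL, edits the bound peptide away from it. Calnexin (CANX) and calreticulin (CALR) are lectin chaperones that fold the glycosylated class I chain, and PDIA3 encodes ERp57, the oxidoreductase that is paired with tapasin in the loading complex. NLRC5 is the transactivator that class I promoters recruit, and it lacks a DNA-binding domain of its own. Type I interferon acts through a transcription factor complex that binds the interferon-stimulated response element, whereas chaperone genes of the endoplasmic reticulum often carry a stress element read by ATF6 and NF-Y.

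The libraries held 39.9 to 62.3 M estimated counts (1 M is 1000000). Cardiomyocyte markers were low, and 2 of 12 passed the filter on low counts. Their summed level, in CPM (counts scaled to 1000000 per library), was 2.67 to 2.72 in acute, 3.06 to 3.96 in recovery and 4.17 to 4.55 in repeat libraries, against 1.91 to 2.01 in vehicle libraries, most of it ACTN2 with 68 to 213 counts. ACTC1, with 6 to 45 counts, had means of 0.58, 0.25 and 0.57 CPM in acute, recovery and repeat cells and 0.20 CPM in vehicle cells. TNNT2 did not rise with the sum, and had 14, 3 and 3 counts in vehicle libraries. It had 1, 0 and 0 counts in acute, 2, 2 and 3 in recovery and 1, 1 and 1 in repeat libraries. MYH6 and MYH7 had at most 1 count, and MYL7 was at 0 in all 12 libraries. The summed level of 10 fibroblast markers was 5965 to 6165 in acute, 6600 to 6679 in recovery and 5232 to 5481 in repeat libraries, against 7643 to 7914 in vehicle libraries. Most of this sum was COL1A1, with mean levels of 3719, 4197 and 3169 CPM in acute, recovery and repeat cells and 4858 CPM in vehicle cells. THY1 hardly moved, at 217, 223, 216 and 223 CPM in the same order of groups. Of 7 immune markers, CD68 followed the interferon groups, with mean levels of 228, 116 and 239 CPM in acute, recovery and repeat cells and 94.3 CPM in vehicle cells. The other immune markers did not follow them. CD14 was at 0.46, 0.69 and 0.45 CPM in acute, recovery and repeat cells and at 0.83 CPM in vehicle cells. In the same order, the leukocyte marker PTPRC, with 37 to 68 counts, was at 0.98, 1.32, 1.02 and 1.16 CPM. CD74 was at 0.96, 0.84, 1.04 and 0.95 CPM. LYZ had 1 to 7 counts, CD79A had 1 to 10, and CD3E was at 0 in every library. Endothelial markers summed to between 10.9 and 14.0 CPM in every library, most of it TEK. Whether the shift in the summed cardiomyocyte markers (mostly ACTN2), in the summed fibroblast markers or in CD68 has a part in the results below was not tested. In bulk samples such as these, fewer cells with a transcript and less of it in each cell cannot be told apart.

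Promoter windows from RefSeq (GRCh38.p14), running from 250 bases before to 50 bases after an annotated start, were at hand for 8 of the 10 genes, 15 windows in all. The windows for NLRC5 and PDIA3 were not used here. Both strands were searched for the core of the interferon-stimulated response element, written GAAANNGAAA on one strand and TTTCNNTTTC on the other. It was present for 5 of the 8 genes, TAP1, TAP2, TAPBP, ERAP1 and ERAP2, whereas 4.38% of the 27305 genes in the same table hold it. The 100 bases around each match are shown 5′ to 3′ in the direction of the gene, with the match in capitals, because these genes include the largest response described below and a small one. TAP1 lies at chr6:32853781-32853880 (minus strand), TAP2 at chr6:32838743-32838842 (minus strand), TAPBP at chr6:33314041-33314140 (minus strand), ERAP1 at chr5:96807896-96807995 (minus strand) and ERAP2 at chr5:96876425-96876524 (plus strand).
TAP1: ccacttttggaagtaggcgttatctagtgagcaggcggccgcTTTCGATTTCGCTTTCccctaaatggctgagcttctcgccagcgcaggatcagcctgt
TAP2: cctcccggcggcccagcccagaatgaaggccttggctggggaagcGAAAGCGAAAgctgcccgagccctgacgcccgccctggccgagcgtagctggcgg
TAPBP: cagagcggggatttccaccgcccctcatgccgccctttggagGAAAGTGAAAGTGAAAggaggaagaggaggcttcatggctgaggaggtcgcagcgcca
ERAP1: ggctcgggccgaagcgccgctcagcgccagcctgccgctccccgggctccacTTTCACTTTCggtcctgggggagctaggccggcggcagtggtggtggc
ERAP2: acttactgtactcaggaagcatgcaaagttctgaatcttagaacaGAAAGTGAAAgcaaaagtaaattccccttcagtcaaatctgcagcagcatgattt

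TAP1 and TAPBP each held overlapping pairs of the core, 16 bases long in all. Counted from the annotated start as 0, the element lay at -134 to -119 in TAP1, at -58 to -49 in TAP2, at -20 to -5 in TAPBP, at 2 to 11 in ERAP1 and at -30 to -21 in ERAP2. TAPBPL held neither this core nor any other motif searched in its 2 windows. The gamma-activated site, TTCNNNGAA, was present only in a window of another TAP1 start, at -189 to -181, and in 9.38% of all genes of the table. A match describes letters in these windows and is not evidence of binding.

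The remaining search was for the endoplasmic reticulum stress element, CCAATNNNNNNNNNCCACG or its reverse complement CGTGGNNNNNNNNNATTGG. It was rare, in 25 of the 27305 genes (0.0916%), and CALR and CANX were among those 25. The CCAAT box that forms its first part is common by itself, in 39.7% of genes, and the stress element overlaps it by construction. In CALR the element lay at -225 to -207 in the reverse orientation, within chr19:12938359-12938458 (plus strand). CANX had 1 such site that fell in 3 of its 4 windows, which overlap each other, at -151 to -133 from the start of the window used here, within chr5:179698737-179698836 (plus strand). Both are shown with the element in capitals, since these genes had the interferon-stimulated core in no window.
CALR: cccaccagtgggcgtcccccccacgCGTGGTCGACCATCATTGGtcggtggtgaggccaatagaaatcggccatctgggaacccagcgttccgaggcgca
CANX: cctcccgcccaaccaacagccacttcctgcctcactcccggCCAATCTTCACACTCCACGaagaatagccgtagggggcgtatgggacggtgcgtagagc

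**Figure D1:**
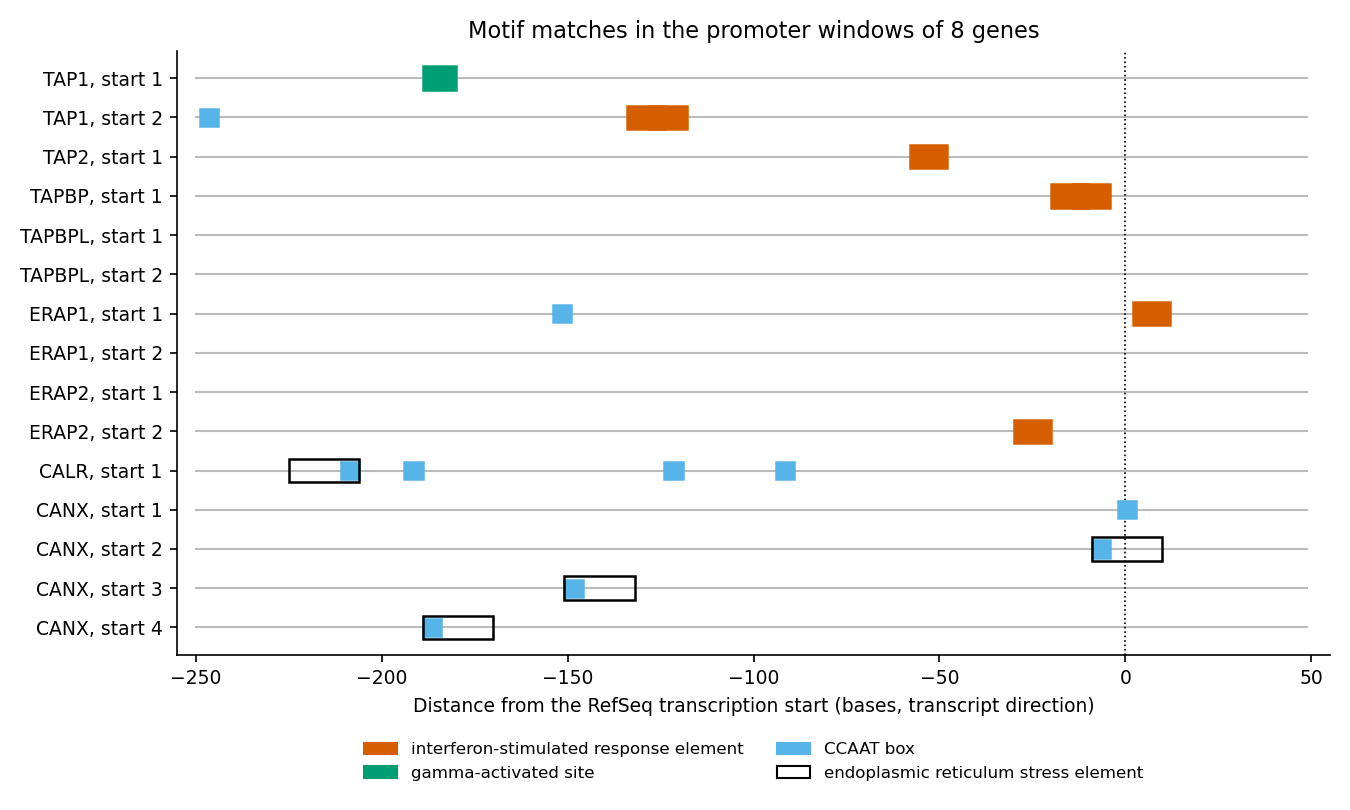
Motif matches in the 15 RefSeq promoter windows of 8 genes; the horizontal axis is the distance in bases from the annotated start in the direction of the transcript, and each row is 1 window. Interferon-stimulated elements are marked in 5 genes and stress elements, drawn as open boxes, in CALR and CANX.

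The transporter genes had the largest responses of the 10 to the first pulse. TAP1 stood at 219, 218 and 222 CPM in acute libraries, against 30.6, 27.5 and 28.4 CPM in vehicle libraries. That is a 7.59-fold difference (log2 fold change 2.92 ± 0.029 SE, edgeR quasi-likelihood test with Benjamini-Hochberg adjustment over all genes, adjusted p = 1.41e-32). TAP2 stood at 368, 361 and 373 CPM in acute libraries, against 85.6, 87.5 and 83.7 CPM in vehicle libraries. In both genes every acute library lay far above every vehicle library. The TAP2 difference was 4.29-fold (log2 fold change 2.10 ± 0.024 SE, edgeR adjusted p = 3.93e-31). Both genes lie in the class II region of the MHC on chromosome 6, on the minus strand, TAP1 at 32845209 to 32853816 and TAP2 at 32821833 to 32838739 in the GENCODE 44 annotation of GRCh38.

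Tapasin moved less than the transporter it is bound to. TAPBP had 241, 253 and 245 CPM in acute libraries, against 171, 164 and 169.5 CPM in vehicle libraries, without overlap. The fold was 1.47 (log2 fold change 0.55 ± 0.023 SE, edgeR adjusted p = 2.17e-17). Its relative TAPBPL moved more, with 8.97, 8.76 and 8.62 CPM in acute libraries against 4.08, 4.64 and 4.18 CPM in vehicle libraries. TAPBPL was thus 2.05-fold higher in acute cells (log2 fold change 1.04 ± 0.075 SE, edgeR adjusted p = 4.08e-12). On the deposited TPM, a level per transcript length, the ratio of TAPBP to TAPBPL was 6.53, 6.40 and 7.54 in acute libraries, against 10.3, 8.37 and 8.02 in vehicle libraries. The ratio of the editors was lower in each acute library than in each vehicle library.

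The trimming enzymes rose by nearly the same factor. ERAP1, the broader N-terminal trimmer, had 55.8, 56.5 and 57.1 CPM in acute libraries, against 27.9, 25.6 and 26.3 CPM in vehicle libraries. ERAP2, its partner with another preference for the leading residue, had 45.8, 43.4 and 43.5 CPM in acute libraries, against 22.2, 20.2 and 19.5 CPM in vehicle libraries. For both, all acute libraries exceeded all vehicle libraries. Log2 fold changes were 1.08 ± 0.038 for ERAP1 and 1.10 ± 0.044 for ERAP2 (SE; edgeR adjusted p = 2.35e-19 for ERAP1 and 6.02e-18 for ERAP2). The genes are neighbours on chromosome 5, ERAP1 at 96760810 to 96808100 on the minus strand and ERAP2 at 96875986 to 96919703 on the plus strand. On TPM the ERAP1 to ERAP2 ratio was 1.31, 1.24 and 1.13 in acute libraries and 1.98, 1.22 and 1.35 in vehicle libraries, with overlapping ranges.

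NLRC5, the regulator of the class I promoters, had 78.1, 75.4 and 78.4 CPM in acute libraries, against 29.0, 29.6 and 30.6 CPM in vehicle libraries. The groups were well apart, and the difference was 2.60-fold (log2 fold change 1.38 ± 0.036 SE, edgeR adjusted p = 1.57e-22).

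The chaperones rose least of the 10. CALR had 1618, 1593 and 1603 CPM in acute libraries, against 1225, 1215 and 1225 CPM in vehicle libraries. PDIA3 had 622, 631 and 614 CPM in acute libraries, against 498, 497 and 497 CPM in vehicle libraries. CANX had 835, 829.9 and 846 CPM in acute libraries, against 723, 729 and 729 CPM in vehicle libraries. Replicates of these 3 genes were so close that no acute library reached down to a vehicle library. The folds were 1.31 for CALR, 1.25 for PDIA3 and 1.15 for CANX (log2 fold changes 0.39, 0.32 and 0.20, with SEs of 0.019, 0.020 and 0.019). All passed the edgeR test, CANX with the largest adjusted p of the 10, 9.11e-10.

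In all 10 genes the acute and vehicle libraries did not overlap, which held for 52.8% of all genes. All 10 genes were called higher in acute than in vehicle cells at an adjusted p under 0.05, a call that 22.3% of the 18119 genes tested received in that direction. Beyond 1.5-fold, tested with edgeR's glmTreat, 6 were called: TAP1, TAP2, TAPBPL, ERAP1, ERAP2 and NLRC5. That call went to 2.07% of genes tested. The median log2 fold change was 1.06 over the 10 genes and 0.00 over all genes. TAPBP missed the 1.5-fold call with a fold of 1.47. Whether the motifs in the promoter windows bear on the size of the responses was not tested.

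**Figure D2:**
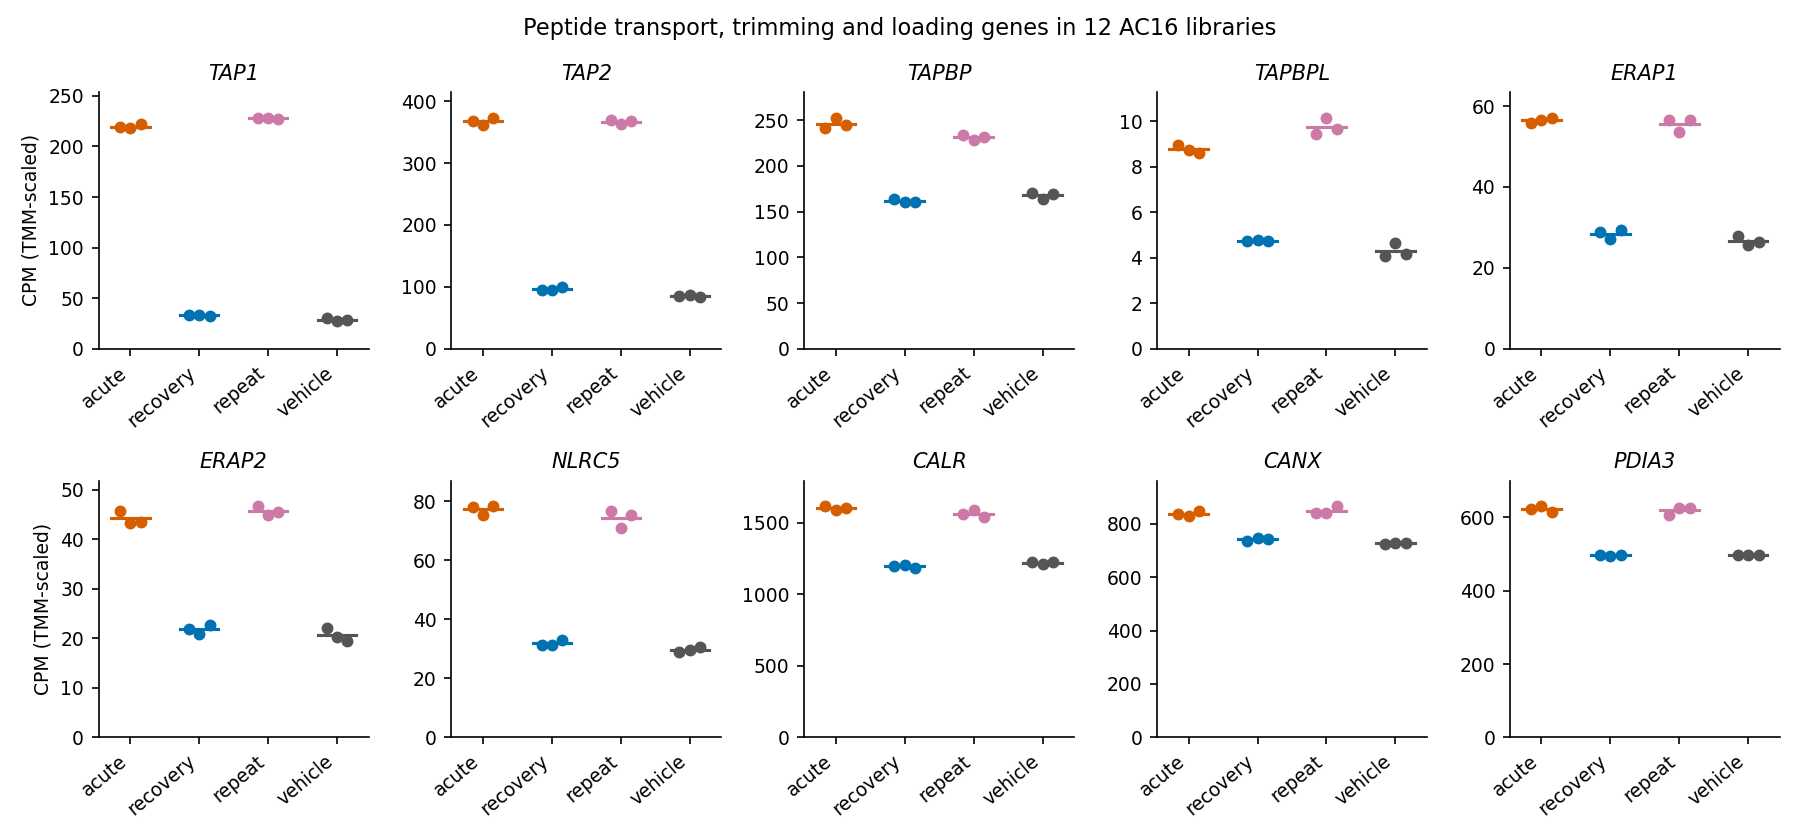
Levels of the 10 genes in CPM, scaled for library composition, in the acute, recovery, repeat and vehicle libraries; each point is 1 library, each line the mean of 3, and every axis starts at 0. Acute and repeat libraries stand together, above recovery and vehicle libraries, in all 10 panels.

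After 5 days without interferon the genes had come down close to vehicle, and 2 remained measurably above it. TAP1 had 33.4, 33.4 and 32.9 CPM in recovery libraries, each above the highest vehicle library at 30.6 CPM. The difference was 0.20 ± 0.034 on the log2 scale (SE, edgeR adjusted p = 0.000281). TAP2 had 94.4, 95.1 and 99.3 CPM in recovery libraries, each above the highest vehicle library at 87.5 CPM, and differed by 0.17 ± 0.026 (log2, SE, edgeR adjusted p = 4.72e-05). Calls of higher in recovery than in vehicle cells were made for 3.03% of all genes. By the 24 h label of vehicle cells, recovery also differs from vehicle by time in culture, and the effects of the pulse and of time cannot be told apart here.

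The other 8 genes did not pass this test on counts. Their recovery minus vehicle log2 differences were 0.15 ± 0.081 for TAPBPL, 0.10 ± 0.039 for NLRC5, 0.10 ± 0.041 for ERAP1, 0.08 ± 0.048 for ERAP2 and 0.03 ± 0.019 for CANX. Those of TAPBP, CALR and PDIA3 were -0.05 ± 0.024, -0.03 ± 0.019 and -0.00 ± 0.020 (SE for all 8). The smallest edgeR adjusted p among the 8 was 0.154, for NLRC5. Recovery and vehicle libraries did not overlap in 6 of the 10 genes, TAP1, TAP2, TAPBPL, NLRC5, CALR and CANX, and in 23.6% of all genes. Against acute cells, all 10 were lower in recovery cells, as were 20.7% of all genes, and 6 were lower beyond 1.5-fold, as were 1.69% of all genes. The log2 differences from acute ran from -2.72 ± 0.029 for TAP1 to -0.17 ± 0.019 for CANX (SE).

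The recovery minus vehicle difference was small beside the acute rise, and only TAP1 and TAP2 had passed the test of it on counts. As a share of the CPM gained in acute cells, this difference was 2.29% ± 0.148 for TAP1 and 3.78% ± 0.936 for TAP2. The share was 4.40% ± 2.28 for NLRC5, 6.25% ± 3.56 for ERAP1, 5.29% ± 3.96 for ERAP2 and 10.4% ± 0.879 for TAPBPL. Each SD is over the 3 recovery libraries and leaves out the spread of the vehicle libraries. TAPBPL had the highest share, yet its recovery level of 4.73, 4.81 and 4.76 CPM stood against 4.08, 4.64 and 4.18 CPM in vehicle libraries, and without vehicle replicate 1, 2 or 3 its share was 8.13%, 13.6% or 9.14%. The ERAP2 share was 8.26% without vehicle replicate 1, 3.03% without vehicle replicate 3 and 3.38% without recovery replicate 3. On the deposited TPM the share was 21.6% for TAPBPL and 0.908% for ERAP2.

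NLRC5 read differently on the deposited TPM. There it had 21.4, 19.7 and 21.4 TPM in recovery libraries, against 15.0, 16.8 and 15.4 TPM in vehicle libraries. The groups did not overlap on this scale, nor did they in CPM, at 31.2 to 33.1 in recovery and 29.0 to 30.6 in vehicle libraries. On log2(TPM + 1) with limma the recovery minus vehicle difference was 0.39 ± 0.056 (SE, adjusted p = 0.0116). On log2(TPM + 0.1) it was 0.41 ± 0.058 (limma adjusted p = 0.00929). As a share of the TPM gained in acute cells, the difference was 19.9%. The transcript length implied by dividing counts by TPM was 1435 ± 18.7 bp in acute, 1167 ± 39.2 bp in recovery and 1321 ± 104 bp in repeat libraries, against 1454 ± 93.8 bp in vehicle libraries (SD, n = 3 each). The recovery libraries thus used the shortest NLRC5 length, 1122 to 1195 bp, and this range did not meet that of the acute or the vehicle libraries. With the implied length as an offset in edgeR the difference was 0.41 ± 0.059 (SE, adjusted p = 0.00664). TAP1, whose implied length was stable, was called in recovery cells on every scale and in each fit that left out 1 library, whereas TAP2 lost its call on TPM and with the length offset at a similar size (0.17 to 0.18, adjusted p = 0.255 to 0.271).

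**Figure D3:**
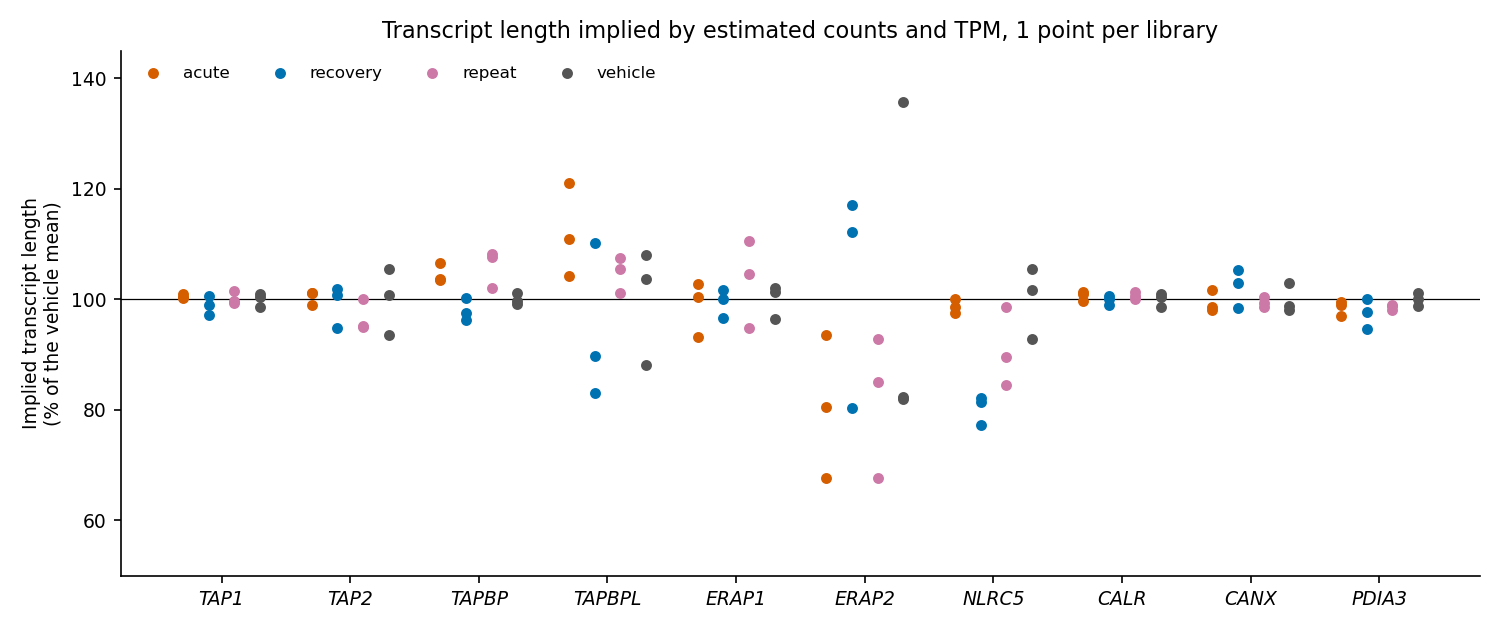
Transcript length implied by estimated counts and TPM, as a percentage of each gene's vehicle mean, with 1 point per library and the acute, recovery, repeat and vehicle groups side by side. NLRC5 recovery libraries lie below all acute and vehicle libraries, ERAP2 scatters most, and TAP1 and CALR hardly move.

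A later pulse brought all 10 genes up again. TAP1 had 228, 228 and 227 CPM in repeat libraries, against 33.4, 33.4 and 32.9 CPM in recovery libraries, a log2 difference of 2.78 ± 0.029 (SE, edgeR adjusted p = 3.64e-32). TAP2 had 369, 362 and 368 CPM in repeat libraries, and the log2 difference from recovery was 1.93 ± 0.024 (SE). TAPBPL had 9.46, 10.2 and 9.69 CPM in repeat libraries and differed from recovery by 1.04 ± 0.073. Repeat and recovery libraries did not overlap in these 3 genes or in any of the 10, as in 49.4% of all genes.

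ERAP1 had 56.5, 53.7 and 56.6 CPM in repeat libraries against 28.8, 27.3 and 29.3 CPM in recovery libraries. ERAP2 had 46.7, 45.0 and 45.6 CPM in repeat libraries against 21.9, 20.9 and 22.8 CPM in recovery libraries. NLRC5 had 76.6, 71.0 and 75.5 CPM in repeat libraries against 31.2, 31.2 and 33.1 CPM in recovery libraries. Repeat libraries were above recovery libraries in each of these genes, by log2 differences of 0.96 ± 0.037 for ERAP1, 1.06 ± 0.043 for ERAP2 and 1.22 ± 0.035 for NLRC5 (SE). The chaperones and tapasin again had the smallest responses: 0.52 ± 0.023 for TAPBP, 0.39 ± 0.019 for CALR, 0.32 ± 0.020 for PDIA3 and 0.20 ± 0.019 for CANX. All 10 were called higher in repeat than in recovery cells (21.1% of all genes were), and the same 6 as in acute cells were called beyond 1.5-fold (1.77% of all genes were).

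Against vehicle, all 10 were higher in repeat cells (23.4% of all genes were) and 6 were higher beyond 1.5-fold (2.31% of all genes were). Acute and repeat cells are set against the same vehicle libraries, so their likeness is not independent. The log2 differences of repeat from vehicle ran from 0.22 ± 0.019 for CANX to 2.98 ± 0.029 for TAP1 (SE).

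The levels reached at the end of the later pulse were close to those at the end of the first. These 2 groups also differ by time in culture as labelled, and the effects of pulse and time cannot be told apart. TAPBP was the only one of the 10 called, and it was lower: 234, 228 and 232 CPM in repeat libraries, against 241, 253 and 245 CPM in acute libraries. The difference was -0.09 ± 0.023 on the log2 scale (SE, edgeR adjusted p = 0.0218), where 2.43% of all genes were called lower. It fell below the threshold without acute replicate 2, the highest TAPBP library, and in 8 other settings. TAP1 and TAPBPL were higher in every repeat than in every acute library, by 0.05 ± 0.024 and 0.15 ± 0.068 (log2, SE), and neither passed (edgeR adjusted p = 0.249 for TAP1 and 0.234 for TAPBPL). CALR was lower in every repeat library, at 1543 to 1591 CPM, than in every acute library, at 1593 to 1618 CPM, and did not pass either (-0.04 ± 0.019, edgeR adjusted p = 0.354). Repeat and acute libraries thus did not overlap in 4 of the 10 genes, and in 20.3% of all genes. For the other 6 the repeat minus acute differences lay between -0.06 for NLRC5 and 0.05 for ERAP2.

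Whether the response to the later pulse differed from the response to the first was tested as 1 contrast of the same fit, the repeat minus recovery difference less the acute minus vehicle difference. TAP2 was called, with a later response smaller by 0.17 (log2 difference -0.17 ± 0.034 SE, edgeR adjusted p = 0.00898), and 0.43% of all genes were called in that direction. Its level after the pulses was 366 ± 3.45 CPM in repeat and 367 ± 5.99 CPM in acute libraries (SD, n = 3 each). In the groups these are set against, it was 96.2 ± 2.64 CPM in recovery and 85.6 ± 1.86 CPM in vehicle libraries. Recovery cells were held for 5 days, and repeat cells for 4 days before the later pulse. The level at the start of that pulse was thus not measured. The call was lost without recovery replicate 3, the highest TAP2 library of that group (-0.15, adjusted p = 0.0561). It was also lost on log2(TPM + 0.1), on log2(TPM + 1) and with the length offset, at -0.14, -0.14 and -0.13 (adjusted p = 0.774, 0.772 and 0.779). TAP1 and NLRC5 had later responses smaller by similar amounts that did not pass (-0.15 ± 0.042, edgeR adjusted p = 0.123, for TAP1 and -0.16 ± 0.050, adjusted p = 0.195, for NLRC5). TAP1 passed without vehicle replicate 1, its highest vehicle library (-0.20 ± 0.040, adjusted p = 0.0259), and with DESeq2 (-0.15 ± 0.046, adjusted p = 0.0293). ERAP1, TAPBP and ERAP2 had -0.12 ± 0.053, -0.04 ± 0.033 and -0.03 ± 0.062 (SE, smallest edgeR adjusted p 0.414). For CALR, CANX, PDIA3 and TAPBPL the difference was between -0.01 and 0.00, with an SE of 0.027 to 0.028 for the 3 chaperones and 0.108 for TAPBPL.

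**Figure D4:**
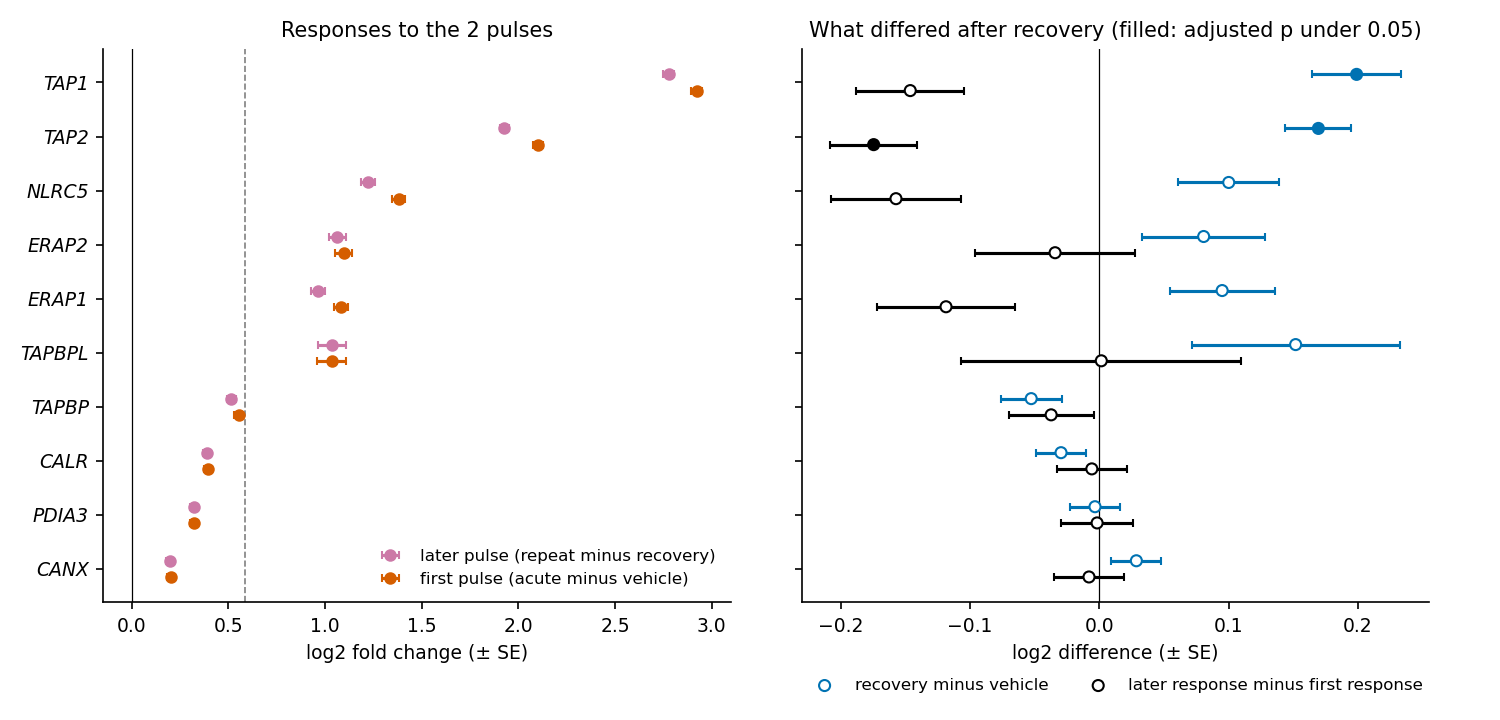
Left, log2 fold changes of the 10 genes in the later response (repeat minus recovery) and the first response (acute minus vehicle), with the 1.5-fold line dashed; right, recovery minus vehicle and the later minus the first response, with filled points past an adjusted p of 0.05. Bars are SEs, and the filled points are TAP1 and TAP2 for recovery and TAP2 for the difference of the responses.

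Levels between genes depend on the length they are divided by. On the deposited TPM the order in vehicle cells was CALR at 641 ± 7.96, CANX at 339 ± 11.4, TAP2 at 288 ± 19.4, PDIA3 at 286 ± 3.34 and TAPBP at 47.6 ± 0.792 TPM, then ERAP1 at 18.4 ± 0.815, NLRC5 at 15.7 ± 0.937, ERAP2 at 12.6 ± 2.68, TAP1 at 8.92 ± 0.437 and TAPBPL at 5.41 ± 0.639 TPM (SD, n = 3). Among neighbours in this order, TAP2 (268 to 306 TPM) and PDIA3 (283 to 289 TPM) overlapped. NLRC5 reached down to 15.0 TPM and ERAP2 up to 14.3 TPM, close but apart, and ERAP2 reached down to 9.49 TPM, just above the highest TAP1 library at 9.34 TPM. The place of TAP2 rests on a length of 226 bp, which is 2.18% of the 10357 bp covered by its annotated exons, whereas TAP1 was given 2479 bp, or 52.3% of its 4738 bp. Per kb of annotated exon, TAP1 and TAP2 stood at 46.4 and 35.5 CPM in acute cells and at 6.09 and 8.27 CPM in vehicle cells. On that scale the TAP1 to TAP2 ratio was 1.30, 1.32 and 1.30 in acute and 1.35, 1.38 and 1.35 in repeat libraries, against 0.781, 0.688 and 0.742 in vehicle libraries. On TPM it was 0.0549 ± 0.000264 in acute and 0.0310 ± 0.00220 in vehicle libraries (SD, n = 3 each). The order within the pair therefore differed between the scales in acute cells, while the ratio was higher in acute than in vehicle libraries on both.

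Several of the genes share ground with others, and no source used here says whether reads were counted by strand. TAP1 overlaps PSMB9 and PSMB8-AS1, TAPBPL overlaps VAMP1, ERAP1 overlaps CAST and PDIA3 overlaps ELL3, all on the opposite strand. ERAP2 overlaps ENSG00000247121, a noncoding gene on the opposite strand with 23 to 89 counts per library. TAP2 overlaps ENSG00000250264 on the same strand, where counting by strand could not tell the reads apart. That gene was given at most 125 estimated counts in any library. PSMB9, the immunoproteasome subunit that shares a divergent promoter with TAP1, had 50.6 ± 0.910 CPM in acute cells, against 6.89 ± 0.415 CPM in vehicle cells (SD, n = 3 each). CAST, the calpain inhibitor calpastatin, ran the other way from ERAP1, with 225 ± 3.33 CPM in acute cells against 262 ± 3.65 CPM in vehicle cells. VAMP1, a synaptobrevin gene, did not pass the test (log2 fold change -0.13 ± 0.072, edgeR adjusted p = 0.157).

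Genes outside the 10 with the most similar pattern were named by the distance over the 3 log2 fold changes against vehicle (acute, recovery and repeat), among genes with a mean of at least 5 CPM. Nearest to TAP1 were TYMP, which encodes thymidine phosphorylase, at 0.15 and IFITM3, an antiviral membrane protein, at 0.19. Nearest to TAP2 were the guanylate-binding protein gene GBP1 and APOL1, both at 0.08. Nearest to NLRC5 were B2M, the light chain of class I, at 0.08 and UNC93B1, a chaperone of endosomal Toll-like receptors, at 0.09. ERAP1 was nearest to SHISA5 at 0.07 and CHROMR at 0.07, ERAP2 to CHROMR at 0.06 and RND3 at 0.08, and TAPBPL to the Notch ligand gene JAG1 at 0.10 and S1PR1 at 0.11. The 3 fold changes share their vehicle libraries, so this likeness describes 4 groups and no more.

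The wider pathway was read through 6 lists of genes. All 6 MHC class I chains of the list were higher in acute than in vehicle cells (22.3% of all genes were), with a median log2 fold change of 1.73. HLA-F, a nonclassical chain, had the largest change at 3.08 ± 0.084, then HLA-B at 1.78 ± 0.027, HLA-G at 1.74 ± 0.188 and HLA-C at 1.71 ± 0.022 (SE), though reads of such similar genes can be split among them. All 5 immunoproteasome and activator genes were higher, with a median of 1.18: PSMB9 at 2.87 ± 0.045, PSMB8 at 1.75 ± 0.035, PSME2 at 1.18 ± 0.030 and PSME1 at 0.90 ± 0.030. In recovery cells 4 of these class I chains remained higher than in vehicle cells, HLA-B, HLA-C, HLA-F and B2M, with HLA-F at 0.92 ± 0.106. PSMB9 alone of the 5 proteasome genes did, at 0.43 ± 0.058. In that comparison 3.03% of all genes were called higher. The later response was smaller than the first in HLA-C (-0.14 ± 0.031, edgeR adjusted p = 0.0335) and HLA-F (-0.58 ± 0.122, adjusted p = 0.0233). A smaller later response was called for 0.43% of all genes. Of these 11 genes, repeat libraries were called higher than acute libraries in HLA-C, HLA-F and PSMB9 (1.77% of all genes were called higher), PSMB9 by 0.28 ± 0.034.

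Peptidases of the cytosol and other trimming enzymes did not move as a block. Of 9, 3 were higher in acute cells and 2 were lower, with a median of 0.08 (22.3% and 21.5% of all genes were). LAP3, a leucine aminopeptidase, changed by 2.03 ± 0.027, nearly as much as TAP2. LNPEP, the endosomal aminopeptidase next to ERAP2, changed by 0.84 ± 0.085, and BLMH, bleomycin hydrolase, by 0.10 ± 0.034. NPEPPS, the puromycin-sensitive aminopeptidase, fell by 0.28 with an SE of 0.025, and NRDC, nardilysin, differed by -0.06 ± 0.021. ERMP1, of the endoplasmic reticulum, had 0.15 ± 0.115 and did not pass. LAP3 was the only one of the 9 called in recovery cells, at 0.11 ± 0.028 above vehicle (edgeR adjusted p = 0.0232). There 3.03% of all genes were called higher.

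Folding and quality-control genes of the endoplasmic reticulum, a list that leaves out CALR, CANX and PDIA3, moved by small amounts. Of 20, 16 were higher in acute cells and 1 was lower, with a median of 0.26 (22.3% and 21.5% of all genes were). The largest were ERP44, a thiol-retention chaperone, at 0.59 ± 0.030, and PDIA4, a disulfide isomerase, at 0.48 ± 0.021. MOGS, the glucosidase that starts trimming of the N-glycan, had 0.37 ± 0.030 and DNAJB11, a cochaperone of BiP, 0.36 ± 0.024. UGGT1, the glucosyltransferase that sends misfolded glycoproteins back to calreticulin and calnexin, was the lower one, at -0.16 ± 0.026, chosen after its value was seen. In repeat against recovery cells 16 were higher and 4 lower (21.1% and 20.5% of all genes were). The lower ones were UGGT1, UGGT2, GANAB and EDEM1, at -0.24, -0.13, -0.05 and -0.14. None of the 20 was called beyond 1.5-fold in any comparison, and HYOU1 alone was called in recovery cells, lower by 0.10 (2.91% of all genes were called lower).

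Genes of signal cleavage and translocation into the endoplasmic reticulum showed 7 higher and 1 lower of 8 in acute cells, with a median of 0.17. Over all genes, 22.3% were called higher and 21.5% lower. HM13, the signal peptide peptidase that frees leader peptides, had 0.33 ± 0.023, SEC61G 0.28 ± 0.042, SEC61B 0.19 ± 0.028 and BCAP31 0.18 ± 0.024. The lower one was SPCS3, at -0.06 ± 0.024. In recovery cells HM13 and SPCS3 were higher than in vehicle cells, each by 0.08 (3.03% of all genes were called higher). Of the 8 partners of NLRC5 at class I promoters, 4 were lower in acute cells (21.5% of all genes were) and 1 was higher (22.3% of all genes were). Their median was -0.09. NFYB, a subunit of the CCAAT-binding factor NF-Y, was lower by 0.47 (log2 -0.47 ± 0.036), RFXAP by 0.32 (-0.32 ± 0.075), ATF1 by 0.22 (-0.22 ± 0.041) and CREB1 by 0.22 (-0.22 ± 0.035). NFYC was the higher one, at 0.14 ± 0.032. NFYB was also lower in recovery than in vehicle cells (-0.11 ± 0.035, edgeR adjusted p = 0.0464), where 2.91% of all genes were called lower.

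The same motifs were counted in the windows of these lists. Over all 27305 genes with windows, 4.38% held the interferon-stimulated core and 0.0916% the stress element. The interferon-stimulated core was present for 4 of 5 proteasome genes (PSMB8, PSMB10, PSME1 and PSME2), 2 of 5 class I chains with a window (HLA-F and B2M), LAP3 among 8 peptidases and RFX5 among 7 partners of NLRC5. It was absent from the windows of all 19 folding genes with one and all 6 translocation genes with one. The stress element was present for 4 of the 19 folding genes, PDIA6, HSPA5, HSP90B1 and CRELD2, and for none in the other 5 lists. HSPA5, the gene of BiP, and HSP90B1, the gene of GRP94, had acute minus vehicle log2 fold changes of 0.30 ± 0.019 and 0.24 ± 0.019.

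**Figure D5:**
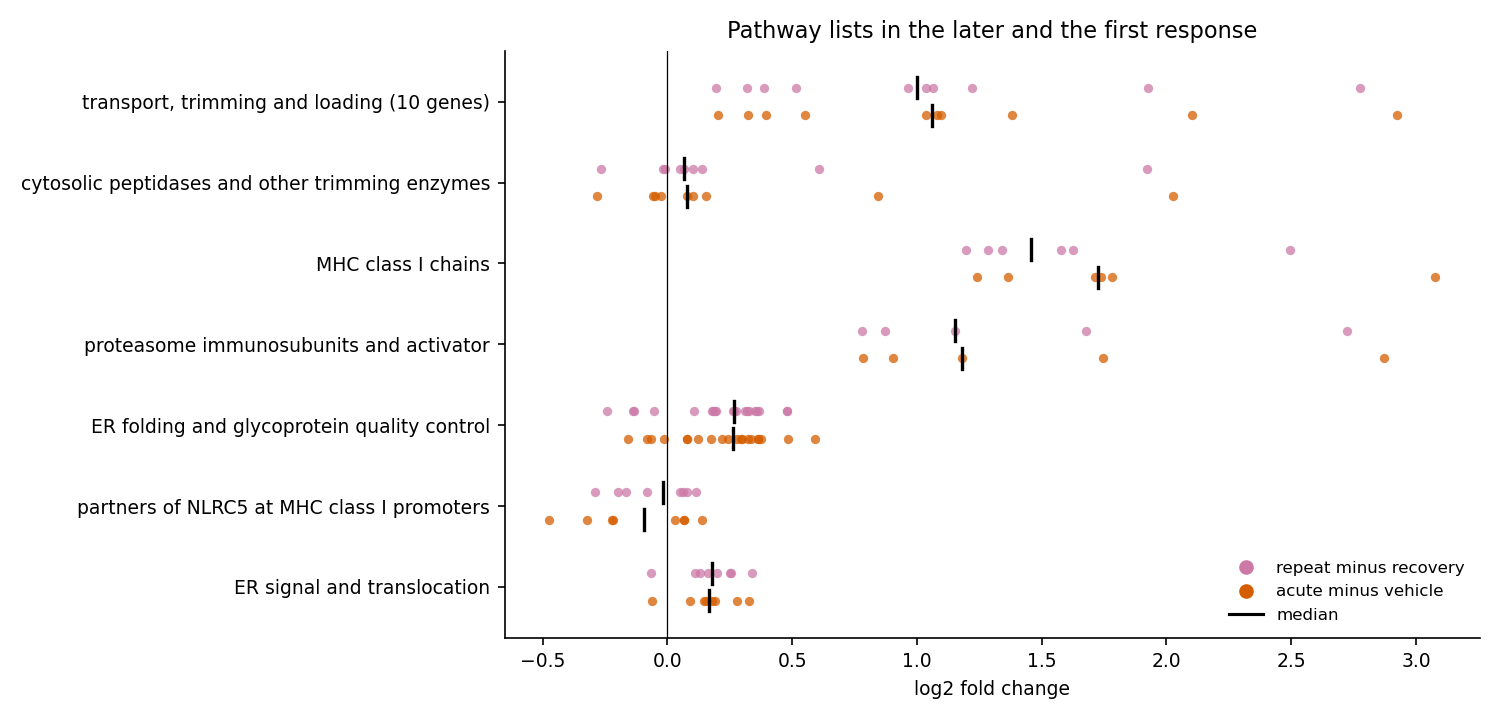
Log2 fold changes of the 10 genes and of the 6 lists in the later response (repeat minus recovery) and the first response (acute minus vehicle); each point is 1 gene and each black bar a median. Class I chains and proteasome genes lie at 0.78 or above in both responses, while folding genes cluster near 0.26 in acute cells.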

How the data were processed

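AC16 libraries, 3 in each of 4 groups, were read as single 75 bp reads from stranded poly(A) libraries, per the labels' protocols. The submitters' processing notes list STAR 2.7.11a, featureCounts 2.0.3, Trim Galore 0.6.10, cutadapt 4.3, edgeR and Picard 2.27.5 with build GRCh38.p13, and the design text in the labels names GENCODE 41. No source used here gives strand or multimapping settings. The authors deposited unscaled estimated counts, of which 25.5% of the nonzero values were not whole, and TPM, which sum to 1000000 per library. Every column had a sample (0 without one).

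Here, the estimated counts were rounded to whole numbers and fitted in edgeR 4.0.16 (R 4.3.3) with 1 mean per group over all 12 libraries, TMM scaling, filterByExpr and the robust quasi-likelihood F test. P-values are two-sided and adjusted by Benjamini-Hochberg over 18119 genes in each of 7 comparisons, with a threshold of 0.05; glmTreat tested against 1.5-fold. The SE is the log2 fold change divided by the square root of F. The fit was also run on simulated counts in which far fewer genes changed than were called in acute minus vehicle. No result here rests on that run. CPM values are TMM-scaled, those of marker genes unscaled. Symbols, coordinates and exon lengths came from GENCODE 44; implied lengths are counts over TPM, calibrated on 373 single-transcript genes with at least 500 counts. Total counts were 39.9 to 62.3 M per library. The common biological coefficient of variation that edgeR estimated among these libraries was 2.67%. Same-numbered libraries did not deviate together (0 of 18 correlations above 0.1, range -0.08 to 0.08), so the fit has no replicate block.

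Alternatives were upper-quartile and RLE scaling, DESeq2 1.42.0, limma-voom and limma on log2(TPM + 0.1) or log2(TPM + 1) with limma 3.58.1, a length offset, other filters on low counts, unrounded counts, a replicate block, fits of only the groups compared, and leaving out each library. Of each list, the 4 genes with the largest acute minus vehicle change were named, other genes after their values were seen. Per member called beyond 1.5-fold, the 2 nearest genes were named. The members and lists were chosen with earlier results of these data known. 1 gene of the class I list is not reported here.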

Additional observations from a re-analysis of the deposited data

Results flagged for a closer look

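In the edgeR fit with all libraries, TAP2 was the only one of the 10 genes whose response differed between the later and the first pulse by a test of the difference itself. The later response minus the first was -0.17 on the log2 scale (SE 0.034, edgeR adjusted p = 0.00898). Levels at the end of the pulses were 366 CPM in repeat and 367 CPM in acute libraries. In the groups these are set against, levels were 96.2 CPM in recovery and 85.6 CPM in vehicle libraries. The level at the start of the later pulse was not measured. The TAP2 call was lost on both TPM scales and with the length offset (adjusted p = 0.772 to 0.779) and without recovery replicate 3 (0.0561). TAP1 was called as well with DESeq2 (-0.15, adjusted p = 0.0293) and without vehicle replicate 1 (-0.20, edgeR adjusted p = 0.0259).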

How the results depend on the processing

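No called log2 fold change of the 10 genes changed direction under any alternative tried: 1649 values kept their side of the threshold, 16 fell below it and 5 passed it. All 10 stayed called in every setting in acute minus vehicle, where TAP1 ran from 2.80 to 2.92 with all libraries and from 2.89 to 2.97 with 1 left out. The count of 1 in repeat minus acute (TAPBP) became 0 on log2(TPM + 0.1), on log2(TPM + 1), with the length offset, without a filter on low counts and with only the groups compared, and was 0 to 1 with 1 library left out. The count of 1 in the later minus the first response (TAP2) became 0 on both TPM scales and with the length offset, 2 with DESeq2, and was 0 to 2 with 1 library left out. In recovery minus vehicle the count stayed at 2 on TPM and with the offset, with NLRC5 called in place of TAP2. On TPM the recovery minus vehicle difference, as a share of the acute rise, was 21.6% for TAPBPL, 0.908% for ERAP2 and 19.9% for NLRC5. Without vehicle replicate 1 or 2 the TAP1 share was 2.74% or 1.95%. The causes were not tested.

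Over all genes, the calls in acute minus vehicle were 7938 by edgeR, against 4329, 4344 and 4400 on log2(TPM + 0.1), on log2(TPM + 1) and with the length offset. The same settings gave 125, 118 and 176 against 1076 in recovery minus vehicle, 3843, 3836 and 3938 against 7448 in recovery minus acute, and 3830, 3824 and 3971 against 7546 in repeat minus recovery. They gave 9, 6 and 8 against 761 in repeat minus acute, 4667, 4651 and 4775 against 8391 in repeat minus vehicle, and 5, 3 and 11 against 118 in the later minus the first response. Recovery minus vehicle split into 549 higher and 527 lower by edgeR, and 81 higher and 44 lower on log2(TPM + 0.1). With upper-quartile scaling, acute minus vehicle split into 3462 higher and 4478 lower, against 4049 and 3889. DESeq2 gave 232 and no low-count filter 333 in the later minus the first response, and leaving out 1 library gave 56 to 323. With 1 library left out, repeat minus acute ran from 337 to 1218 and recovery minus vehicle fell to 624 without vehicle replicate 1. The replicate block gave 7983 calls in acute minus vehicle and changed no call among the 10 genes; the libraries share only a number.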
